A study of Homo sapiens with 6 samples.

Results

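The 56 genes described here encode lysosomal hydrolases and their activators, lysosomal membrane proteins, subunits of the vacuolar proton pump (V-ATPase) and the MiT/TFE transcription factors. The rule that lists them uses the known function of their products and no signal, though the genes were chosen with earlier results of these data known. They were read in an expression table of 19775 genes. Of the 56 genes, 54 have a probe set that names them alone, and all 54 lay above the array's median signal on at least 2 of 6 arrays, as did 13398 genes in all. GLB1 and ATP6V1F have only a probe set that also names another gene, so they are given apart and stay outside the counts.

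The cells were IMR90, a line of human diploid lung fibroblasts, and all of them carried ER:Ras, an oncogenic H-Ras that 4-hydroxytamoxifen (4-OHT) switches on. Growing cells received neither 4-OHT nor siRNA. The other cells were taken into oncogene-induced senescence (OIS) with 100 nM 4-OHT over 6 days, and siRNA was given 2 days after its start and 4 days before RNA was taken. Ctrl-KD OIS cells received a control siRNA and RB-KD OIS cells a mixture of 3 siRNAs against RB1 at 10 nM, so siRNA itself and 4-OHT cannot be told apart in comparisons with growing cells. RNA of 2 independent experiments per state was measured on Affymetrix U133 Plus 2.0 arrays. The 6 arrays had median signals of 46 to 51.8, and r across genes was 0.971 to 0.974 between replicates and 0.893 to 0.953 between states. RB1 read 2627 and 2528 in growing, 2578 and 1914 in Ctrl-KD OIS and 222 and 228 in RB-KD OIS cells. All 12 fibroblast markers passed the filter, and their summed signal was 224100 to 225600 in growing, 161700 to 166200 in Ctrl-KD OIS and 185100 to 225100 in RB-KD OIS cells. In Ctrl-KD OIS against growing cells 1 of these markers was higher and 7 were lower, in RB-KD OIS against growing 3 were higher and 5 lower, and in RB-KD OIS against Ctrl-KD OIS 4 higher and 0 lower (limma; 6 at an unadjusted p under 0.05 in either direction). Their part in the results was not tested. Of 11 monocyte and macrophage markers measured, 6 lay under the array median on all arrays.

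Lysosomes break down proteins, glycans and lipids with hydrolases that work at acid pH, and the V-ATPase pumps the protons that acidify them. The cytosolic V1 sector of the pump splits ATP and turns the V0 sector in the membrane. Many of these genes share a short promoter element that TFEB, TFE3 and MITF bind, and a raised lysosomal β-galactosidase activity, which comes from GLB1, is a widely used stain for senescent cells. The following promoter stretches hold the centre of that element. Their genes come from several groups, with ATP6V0D1 and ATP6V0B both from the V0 group. They are only a part of the genes with that centre and do not stand for the rest.

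The sequences are the 100 bases before the RefSeq start site (build GRCh38.p14), 5′ to 3′ on the strand of the gene, with CACGTG, or TCACGTGA where it is complete, in capitals. ATP6V1G1 is at chr9:114587669-114587768 (plus strand), ATP6V0D1 at chr16:67481158-67481257 (minus strand), ATP6V0B at chr1:43974860-43974959 (plus strand), CTSA at chr20:45891235-45891334 (plus strand), MCOLN1 at chr19:7522524-7522623 (plus strand) and GAA at chr17:80101481-80101580 (plus strand).
ATP6V1G1: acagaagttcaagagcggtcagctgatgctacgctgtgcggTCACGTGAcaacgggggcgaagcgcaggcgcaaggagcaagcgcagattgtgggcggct
ATP6V0D1: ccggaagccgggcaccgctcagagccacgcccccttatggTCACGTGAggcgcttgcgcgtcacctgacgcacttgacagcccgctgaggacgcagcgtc
ATP6V0B: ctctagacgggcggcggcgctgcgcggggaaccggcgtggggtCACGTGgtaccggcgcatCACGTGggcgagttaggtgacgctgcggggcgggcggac
CTSA: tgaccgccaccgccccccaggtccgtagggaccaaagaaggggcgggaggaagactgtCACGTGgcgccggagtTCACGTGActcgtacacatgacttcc
MCOLN1: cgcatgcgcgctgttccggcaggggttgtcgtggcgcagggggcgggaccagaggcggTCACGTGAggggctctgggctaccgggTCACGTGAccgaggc
GAA: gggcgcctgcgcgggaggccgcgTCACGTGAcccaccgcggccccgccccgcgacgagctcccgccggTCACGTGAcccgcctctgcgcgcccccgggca

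RefSeq promoter windows, 250 bases before to 50 after a start site, were matched by symbol for 39 of the 56 genes and gave 59 windows. CACGTG, which reads the same on both strands, lay in 13 of them (22%), against 7.26% of 35116 windows of all genes. TCACGTGA, which contains it, lay in 6 windows (10.2%), against 0.98% of all. The windows of the MiT/TFE genes held neither. These matches describe letters in a window and do not show that a factor binds there. Of the 12 genes with CACGTG in a window, 7 (58.3%) were higher in Ctrl-KD OIS than growing cells, against 32 of all 54 (59.3%), a share near that of the whole list. GAA, printed above, and LAMP1, CD63, CTSD and ATP6V0E2, which are not printed, were the 5 not called there.

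In Ctrl-KD OIS against growing cells, the first of the 3 comparisons, 32 of the 54 genes were higher and 7 lower (limma, adjusted p under 0.05), against 20.5% of all tested genes higher and 21.2% lower. The median log2 change of the 54 was 0.50, and that of all tested genes was -0.01. In RB-KD OIS against growing 27 were higher and 7 lower, with a median of 0.36, where 18.5% of all genes were higher and 19% lower with a median of -0.02. In RB-KD OIS against Ctrl-KD OIS 6 were higher and 18 lower, with a median of -0.20, where 12.6% of all genes were higher and 11.6% lower with a median of -0.02. The 18 became 8 when the prior variance did not follow the signal, where 641 of all 13398 genes were lower in place of 1556. With the mean of all probe sets of each gene, 6 were lower and 3 higher, where 775 and 874 of all 11924 genes were. Without RB-KD OIS replicate 1, fewer of the 54 and of all genes were called, and the median of the 54 was -0.19. The comparisons share arrays, so their values stand side by side and are not independent of each other. A lower signal in RNA of a whole culture cannot tell fewer expressing cells from less RNA per cell.

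**Figure D1:**
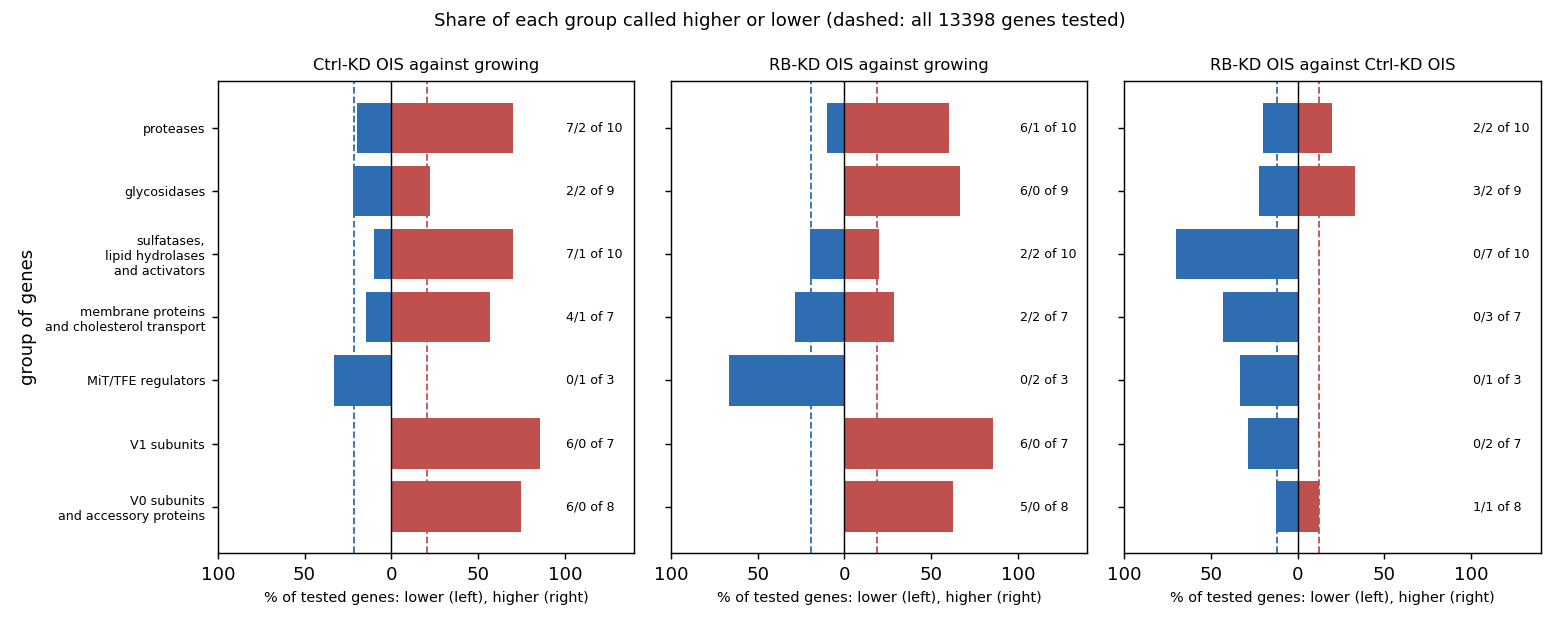
Percent of the tested genes of each of 7 groups called lower (blue bars, to the left) or higher (red bars, to the right) in the 3 comparisons, with the same percents over all tested genes as dashed lines and the counts higher/lower of tested at the right. The V1 and V0 groups had no gene lower against growing cells, and the group of sulfatases, lipid hydrolases and activators had 7 of 10 lower in RB-KD OIS against Ctrl-KD OIS.

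**Figure D2:**
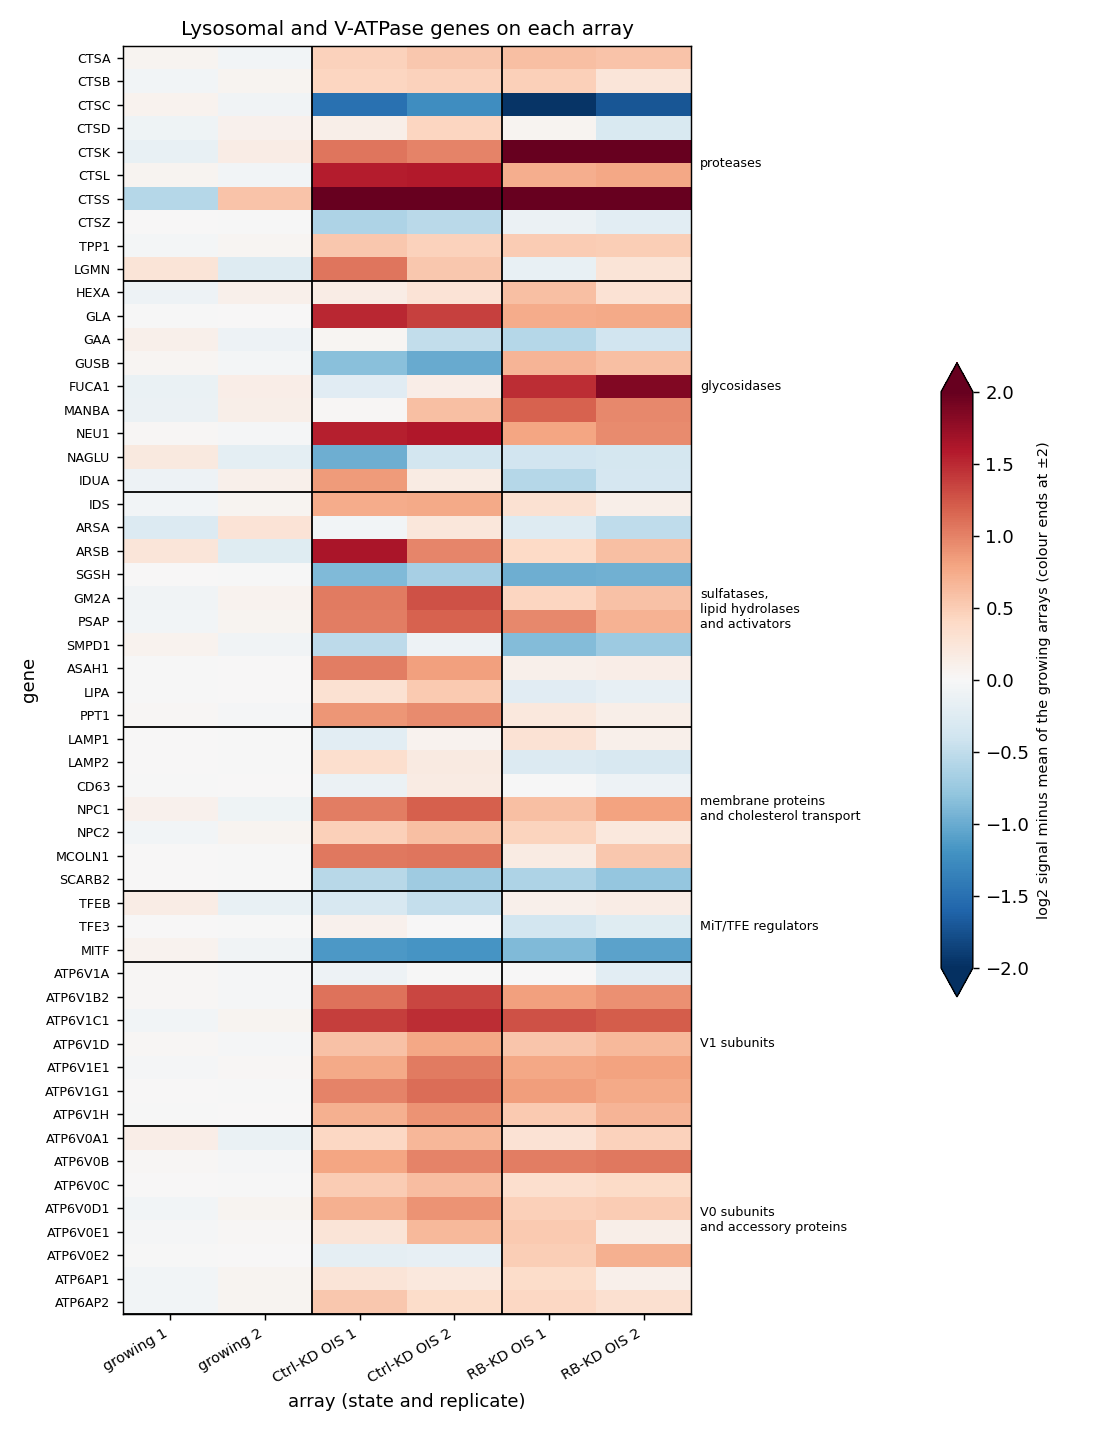
Log2 signal of each of the 54 genes (rows) on each of the 6 arrays (columns) minus the mean of the growing arrays, red where higher and blue where lower, with colours ending at 2 in either direction. The pump genes are red on all OIS arrays apart from ATP6V1A and ATP6V0E2, and GUSB is blue in Ctrl-KD OIS and red in RB-KD OIS cells.

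Among the 10 proteases, 7 were higher and 2 lower in Ctrl-KD OIS than growing cells, and 6 were higher and 1 lower in RB-KD OIS cells. CTSS encodes cathepsin S, a cysteine protease that also works at neutral pH and is best known from antigen-presenting cells. Its signal was 78.7 and 174 in growing, 5052 and 4220 in Ctrl-KD OIS and 5575 and 5583 in RB-KD OIS cells. All OIS arrays lay far above the growing arrays, 39.4-fold in Ctrl-KD OIS (log2 change 5.30, SE 0.29, adjusted p = 1.36e-06) and 47.6-fold in RB-KD OIS cells (5.57, SE 0.29, adjusted p = 1.38e-06). The size of these folds is uncertain, since the growing arrays read 78.7 and 174 where their medians were 51.8 and 49.5. Further CTSS probe sets gave smaller log2 changes, 3.34 and 4.76 in Ctrl-KD OIS and 3.76 and 4.94 in RB-KD OIS cells. Between the OIS states CTSS changed by 0.27 (adjusted p = 0.556). The summed signal of the 11 macrophage markers was 360 to 395 in growing, 351 to 443 in Ctrl-KD OIS and 424 to 545 in RB-KD OIS cells, and the 3 that passed the filter were called in none of the comparisons. Their part in the signal of CTSS was not tested.

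CTSK encodes cathepsin K, a collagen-degrading protease of osteoclasts and of activated fibroblasts. It read 892 and 1099 in growing, 2088 and 1962 in Ctrl-KD OIS and 7001 and 5262 in RB-KD OIS cells. The 3 states did not overlap, and in Ctrl-KD OIS CTSK was 2.04-fold above growing cells (adjusted p = 0.000477) and higher again by 1.58 (log2) in RB-KD OIS than Ctrl-KD OIS cells (SE 0.15, adjusted p = 0.000147). CTSL encodes cathepsin L, an endopeptidase found in most cells. It read 4890 and 4538 in growing, 13981 and 14159 in Ctrl-KD OIS and 7756 and 8031 in RB-KD OIS cells. The order of the OIS states was the opposite of that of CTSK, with CTSL in Ctrl-KD OIS 2.99-fold above growing cells (adjusted p = 7.52e-07) and 1.78-fold lower in RB-KD OIS than Ctrl-KD OIS cells (log2 change -0.83, SE 0.08, adjusted p = 0.000147).

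CTSC encodes cathepsin C, a dipeptidyl peptidase that activates serine proteases of immune cells. It fell from 16178 and 14752 in growing cells to 5504 and 6564 in Ctrl-KD OIS and 3948 and 4735 in RB-KD OIS cells. The states did not overlap, and its signal was 2.57-fold lower in Ctrl-KD OIS (adjusted p = 1.97e-05) and 3.57-fold lower in RB-KD OIS (adjusted p = 4.5e-06) than growing cells. The further change of -0.48 between the OIS states (adjusted p = 0.0182) lost its call without Ctrl-KD OIS replicate 2 (value -0.35) or RB-KD OIS replicate 1 (value -0.34). A dimmer further probe set of CTSC was called in the opposite direction there, at 1.08 (limma, adjusted p = 0.00468). The other CTSC probe sets gave -0.03 and -0.56 (limma, adjusted p = 0.891 and 0.0192). CTSZ, the carboxypeptidase cathepsin Z, was the other protease lower in Ctrl-KD OIS than growing cells, with a log2 change of -0.58 (adjusted p = 0.000367), and it was higher by 0.42 in RB-KD OIS than Ctrl-KD OIS (adjusted p = 0.00563). CTSA, CTSB and TPP1, a carboxypeptidase, the abundant cathepsin B and a tripeptidyl peptidase, were higher in both OIS states by 0.36 to 0.59 on the log2 scale. For CTSB in RB-KD OIS against growing cells the result depended on the probe set, since 3 others gave -0.28, -0.16 and -0.08 (each uncalled) and 1 gave 0.45 (adjusted p = 0.00679). Between the OIS states the CTSB probe sets at -0.28 and -0.16 were called lower, by -0.41 and -0.43 (limma, adjusted p = 0.0262 and 0.0126). The brightest and the remaining CTSB probe sets were not called there. The CTSB calls against growing cells were lost without growing replicate 1 (values 0.39 in Ctrl-KD OIS and 0.31 in RB-KD OIS cells). The latter was also lost without RB-KD OIS replicate 1 (value 0.25). Of 3 further TPP1 probe sets, 1 gave -0.39 in RB-KD OIS against growing cells (adjusted p = 0.0565), while the dimmer others gave 2.15 and 1.10 (adjusted p = 0.0077 and 0.00199). The TPP1 probe set at -0.39 was called lower between the OIS states, at -0.54 (limma, adjusted p = 0.0252), where the other TPP1 probe sets were not called. LGMN, which cuts after asparagine, had a log2 change of 0.81 in Ctrl-KD OIS (adjusted p = 0.0257), a call lost without growing replicate 2 or Ctrl-KD OIS replicate 1 (adjusted p = 0.17 and 0.171). CTSD, the aspartic protease cathepsin D, was called in none of the comparisons, with log2 changes of 0.27, -0.12 and -0.40.

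The 9 glycosidases with a probe set of their own did not move together. In Ctrl-KD OIS cells 2 were higher and 2 lower than growing cells, near the shares of all genes, whereas 6 were higher and 0 lower in RB-KD OIS cells (0 lower also at an unadjusted p under 0.05 in the limma fit, where the 6 called were the only ones to pass). When probe sets were averaged, 3 of 8 were higher in RB-KD OIS than growing cells. GUSB, the β-glucuronidase that trims glycosaminoglycans, read 1936 and 1839 in growing, 1053 and 934 in Ctrl-KD OIS and 3018 and 2872 in RB-KD OIS cells. Its Ctrl-KD OIS arrays were the lowest and its RB-KD OIS arrays the highest. The log2 change was -0.93 in Ctrl-KD OIS (SE 0.10, adjusted p = 8.66e-05) and 0.64 in RB-KD OIS against growing (SE 0.10, adjusted p = 0.00104), and RB-KD OIS cells were 2.97-fold above Ctrl-KD OIS cells (log2 change 1.57, adjusted p = 1.93e-05). FUCA1, the α-fucosidase, read 113 and 136 in growing, 106 and 135 in Ctrl-KD OIS and 346 and 444 in RB-KD OIS cells. Growing and Ctrl-KD OIS arrays overlapped, and both RB-KD OIS arrays lay above them, 3.27-fold over Ctrl-KD OIS cells (log2 change 1.71, SE 0.25, adjusted p = 0.00158). The second probe sets of GUSB and FUCA1 read at most 56.8 and 31.9 and did not pass the filter, and averaging them in ended both genes' calls between the OIS states. MANBA, the β-mannosidase, was also higher in RB-KD OIS cells, by 1.07 against growing (adjusted p = 0.00159) and by 0.76 against Ctrl-KD OIS (adjusted p = 0.0166), and the latter call was lost without Ctrl-KD OIS replicate 1 (adjusted p = 0.0665) or RB-KD OIS replicate 1 (adjusted p = 0.115).

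GLA and NEU1 had the opposite order of OIS states. GLA, the α-galactosidase A that removes terminal galactose from glycolipids, read 1394 and 1417 in growing, 3996 and 3644 in Ctrl-KD OIS and 2362 and 2369 in RB-KD OIS cells. NEU1, the lysosomal sialidase, read 985 and 952, then 2856 and 2930, then 1674 and 1872 in the same order. For both genes the Ctrl-KD OIS arrays were highest, the RB-KD OIS arrays between and the growing arrays lowest. In Ctrl-KD OIS against growing cells the log2 change was 1.44 for GLA (SE 0.09, adjusted p = 2.97e-06) and 1.58 for NEU1 (SE 0.10, adjusted p = 2.96e-06), and in RB-KD OIS against Ctrl-KD OIS it was -0.69 (adjusted p = 0.000859) and -0.71 (adjusted p = 0.00117). HEXA, a subunit of the β-hexosaminidases, had 0.45 in RB-KD OIS against growing (adjusted p = 0.0235), lost without growing replicate 1 (adjusted p = 0.169) or RB-KD OIS replicate 1 (adjusted p = 0.158). NAGLU, which acts on heparan sulfate, had -0.67 in Ctrl-KD OIS (adjusted p = 0.0469), and this call was lost without any array but Ctrl-KD OIS replicate 2 (adjusted p = 0.0529 to 0.27). GAA, the acid α-glucosidase of glycogen, and IDUA, the α-iduronidase, were called in none of the comparisons.

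**Figure D3:**
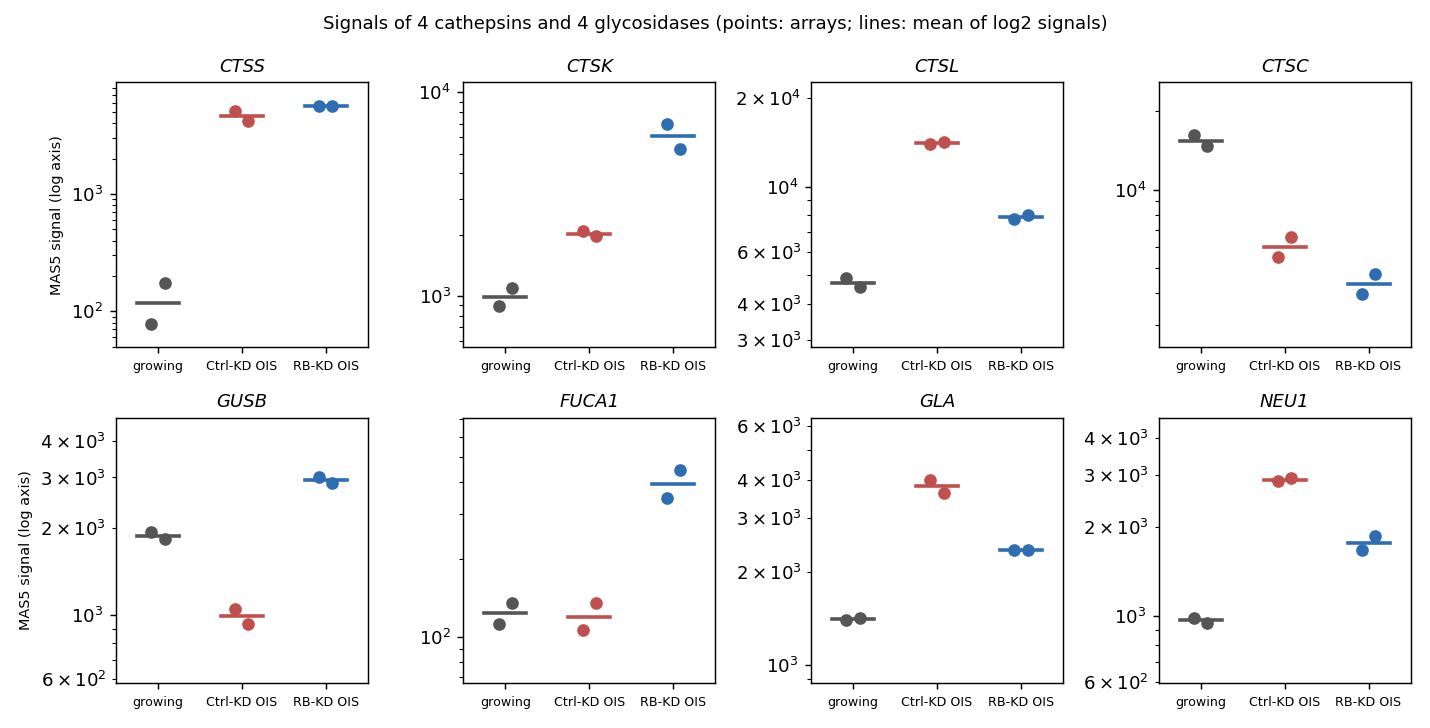
MAS5 signal on a log axis, each panel with its own range, of CTSS, CTSK, CTSL and CTSC (top) and GUSB, FUCA1, GLA and NEU1 (bottom) in the 3 states, with a point per array and a line at the mean of the log2 signals (n = 2 per state). CTSK, GUSB and FUCA1 are highest in RB-KD OIS cells, and CTSL, GLA and NEU1 in Ctrl-KD OIS cells.

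GLB1, the β-galactosidase behind the senescence stain, was read only by a probe set shared by TMPPE and GLB1. That probe set gave 3541 and 3519 in growing, 3874 and 3930 in Ctrl-KD OIS and 4819 and 4134 in RB-KD OIS cells. The 3 states did not overlap, but the steps were small, with log2 changes of 0.14 in Ctrl-KD OIS (SE 0.10, adjusted p = 0.29) and 0.34 in RB-KD OIS against growing (SE 0.10, adjusted p = 0.0254), and 0.19 between the OIS states (adjusted p = 0.219). These p-values come from the fit across all 30139 probe sets that passed the filter, in which 34.1%, 30.5% and 16.9% were called in either direction in the 3 comparisons. The signal of the shared probe set cannot be split between GLB1 and TMPPE.

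The 10 genes of sulfatases, lipid hydrolases and their activators had the largest share of calls between the OIS states among the 7 groups. In Ctrl-KD OIS cells 7 were higher and 1 lower than growing cells, with a median log2 change of 0.84. In RB-KD OIS cells 2 were higher and 2 lower than growing cells, with a median of 0.14, and 7 of 10 were lower than Ctrl-KD OIS cells and 0 higher (0 with a rise at any p, since all 10 values lay between -0.81 and -0.20). When the probe sets of each gene were averaged this count was 2 (PPT1 and PSAP) and LIPA turned to 0.39. It was 4 when the prior variance did not follow the signal. ARSB, the arylsulfatase of dermatan sulfate, read 903 and 649 in growing, 2366 and 1507 in Ctrl-KD OIS and 1012 and 1165 in RB-KD OIS cells. In Ctrl-KD OIS this brightest probe set was 2.47-fold above growing cells (log2 change 1.30, SE 0.22, adjusted p = 0.00123). The dimmer ARSB probe sets past the filter gave 0.52 and 0.53 there, uncalled (limma, adjusted p = 0.22 and 0.0539). Averaging ARSB over its probe sets ended the call against growing cells (limma, adjusted p = 0.102). The average takes in a probe set that read at most 29.1 and failed the filter. The ARSB call of -0.80 between the OIS states (adjusted p = 0.0283) was lost without Ctrl-KD OIS replicate 1 or either RB-KD OIS array (values -0.47, -0.70 and -0.90). GM2A, which lifts GM2 ganglioside out of the membrane for hydrolysis, read 1072 and 1171 in growing, 2312 and 2694 in Ctrl-KD OIS and 1511 and 1689 in RB-KD OIS cells. The Ctrl-KD OIS arrays were highest, 2.23-fold above growing cells (adjusted p = 4.92e-05) and 1.56-fold above RB-KD OIS cells (log2 change -0.64 for RB-KD OIS against Ctrl-KD OIS, SE 0.12, adjusted p = 0.0041). Its call of 0.51 in RB-KD OIS against growing was lost without growing replicate 1 (adjusted p = 0.0645) or RB-KD OIS replicate 2 (adjusted p = 0.0534).

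PSAP encodes prosaposin, the precursor of the saposins that assist sphingolipid hydrolases. It read 9120 and 9747 in growing, 19226 and 21270 in Ctrl-KD OIS and 18335 and 15263 in RB-KD OIS cells. Both OIS states lay above growing cells, by 1.10 (SE 0.10, adjusted p = 3.23e-05) and 0.83 (SE 0.10, adjusted p = 0.000246) on the log2 scale, with -0.27 between them (adjusted p = 0.0867). SGSH, the sulfamidase of heparan sulfate, read 1690 and 1689 in growing, 916 and 1066 in Ctrl-KD OIS and 860 and 864 in RB-KD OIS cells. It was the gene of the group that fell in both OIS states, 1.71-fold in Ctrl-KD OIS (adjusted p = 0.000512) and 1.96-fold in RB-KD OIS (adjusted p = 0.000164). ASAH1 (acid ceramidase), PPT1 (palmitoyl-protein thioesterase), IDS (iduronate sulfatase) and LIPA (the lipase of cholesteryl esters) were higher in Ctrl-KD OIS than growing cells by 0.92, 0.92, 0.75 and 0.41 and lower in RB-KD OIS than Ctrl-KD OIS cells by log2 changes of -0.81, -0.75, -0.54 and -0.60. Against growing cells none of these 4 was called in RB-KD OIS cells, with values from -0.19 to 0.21. A dimmer further IDS probe set was called higher there, at 0.48 (limma, adjusted p = 0.0197). The other further IDS probe sets past the filter gave -0.06 to 0.43, uncalled. The call of LIPA in Ctrl-KD OIS cells was lost without growing replicate 1 (adjusted p = 0.0619). SMPD1, the acid sphingomyelinase, had -0.79 in RB-KD OIS against growing (adjusted p = 0.003), while its -0.48 against Ctrl-KD OIS (adjusted p = 0.0479) was lost without any array but Ctrl-KD OIS replicate 1 (adjusted p = 0.07 to 0.227). ARSA, the arylsulfatase of sulfatide, was called in none of the comparisons.

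Of the 7 membrane proteins and cholesterol carriers, 4 were higher and 1 lower in Ctrl-KD OIS than growing cells, and 3 were lower in RB-KD OIS than Ctrl-KD OIS cells. When probe sets were averaged these counts were 2, 1 and 1, and without RB-KD OIS replicate 1 the last was 1. NPC1, the membrane protein that exports cholesterol from lysosomes, read 1674 and 1470 in growing, 3184 and 3595 in Ctrl-KD OIS and 2382 and 2747 in RB-KD OIS cells. The states did not overlap, with log2 changes of 1.11 (SE 0.11, adjusted p = 6.04e-05) in Ctrl-KD OIS and 0.71 (SE 0.11, adjusted p = 0.00121) in RB-KD OIS against growing. The -0.40 between the OIS states (adjusted p = 0.0324) was lost without Ctrl-KD OIS replicate 2 (adjusted p = 0.143) or RB-KD OIS replicate 1 (adjusted p = 0.182), and 2 further NPC1 probe sets, uncalled, gave values below 0 against growing cells. MCOLN1, the calcium channel TRPML1, read 282 and 277 in growing, 583 and 585 in Ctrl-KD OIS and 312 and 407 in RB-KD OIS cells. In Ctrl-KD OIS it was 2.09-fold above growing cells (adjusted p = 0.000965), and its fall of -0.71 to RB-KD OIS (adjusted p = 0.0165) was lost without either Ctrl-KD OIS array or RB-KD OIS replicate 1 (adjusted p = 0.0577 to 0.0956).

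SCARB2, the receptor that carries glucocerebrosidase to lysosomes, read 8334 and 8263 in growing, 5679 and 5068 in Ctrl-KD OIS and 5389 and 4878 in RB-KD OIS cells. Both OIS states lay below growing cells, by log2 changes of -0.63 (SE 0.09, adjusted p = 0.000477) and -0.69 (SE 0.09, adjusted p = 0.000333), and overlapped each other. LAMP2, a heavily glycosylated protein of the lysosomal membrane, has no settled direction, because its 4 probe sets disagree. The brightest read 6836 and 6830 in growing, 8638 and 7765 in Ctrl-KD OIS and 5680 and 5459 in RB-KD OIS cells, and gave 0.26 (adjusted p = 0.0324), -0.30 (adjusted p = 0.0209) and -0.56 (adjusted p = 0.00164) in the 3 comparisons. Another gave -1.53 in Ctrl-KD OIS (adjusted p = 6.92e-05), another 0.30 in RB-KD OIS against growing (adjusted p = 0.0244), and all 3 others gave values above 0 between the OIS states (0.18 to 0.58). The calls of the brightest LAMP2 probe set against growing cells were also lost without either growing array (adjusted p = 0.123 to 0.159), without Ctrl-KD OIS replicate 1 (adjusted p = 0.118) and without either RB-KD OIS array (adjusted p = 0.052 and 0.0957). NPC2, the soluble partner of NPC1, was higher by 0.54 in Ctrl-KD OIS (adjusted p = 0.00179) and by 0.33 in RB-KD OIS (adjusted p = 0.0264), the latter lost without either growing array or RB-KD OIS replicate 1 (adjusted p = 0.0788 to 0.179). LAMP1 and CD63, further abundant membrane proteins, were called in none of the comparisons, with values from -0.08 to 0.26.

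None of the 3 MiT/TFE regulators was called higher in any comparison. At an unadjusted p under 0.05 in limma, 1, 2 and 2 genes passed in either direction. The 2 between the OIS states were TFE3, which was lower, and TFEB, which was higher by 0.53 (limma, adjusted p = 0.13). Both RB-KD OIS arrays lay above the Ctrl-KD OIS arrays for TFEB. The calls of MITF and TFE3 were lost when the probe sets of each gene were averaged. For MITF that mean takes in a probe set that read at most 17.7 and did not pass the filter. The other further MITF probe set gave -1.21 in Ctrl-KD OIS and -1.09 in RB-KD OIS against growing (limma, adjusted p = 8.24e-05 and 0.000213). MITF read 1512 and 1360 in growing, 650.2 and 631 in Ctrl-KD OIS and 782 and 686 in RB-KD OIS cells. It fell in both OIS states, 2.24-fold in Ctrl-KD OIS (log2 change -1.16, SE 0.12, adjusted p = 6.74e-05) and 1.96-fold in RB-KD OIS cells (-0.97, SE 0.12, adjusted p = 0.000271). TFE3 read 4986 and 4910 in growing, 5235 and 4977 in Ctrl-KD OIS and 3848 and 4202 in RB-KD OIS cells. Growing and Ctrl-KD OIS arrays overlapped and the RB-KD OIS arrays lay lower, by -0.30 (adjusted p = 0.0206) and -0.34 (adjusted p = 0.0176), but the first call was lost without either growing array or RB-KD OIS replicate 1 (adjusted p = 0.109 to 0.133) and the second without Ctrl-KD OIS replicate 1 (adjusted p = 0.055) or RB-KD OIS replicate 1 (adjusted p = 0.102). TFEB read 220 and 179 in growing, 158 and 142 in Ctrl-KD OIS and 212 and 219 in RB-KD OIS cells, with log2 changes of -0.41, 0.12 and 0.53 (adjusted p = 0.19, 0.719 and 0.13). The activity of these factors is set largely by phosphorylation and entry into the nucleus, which these arrays do not measure.

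**Figure D4:**
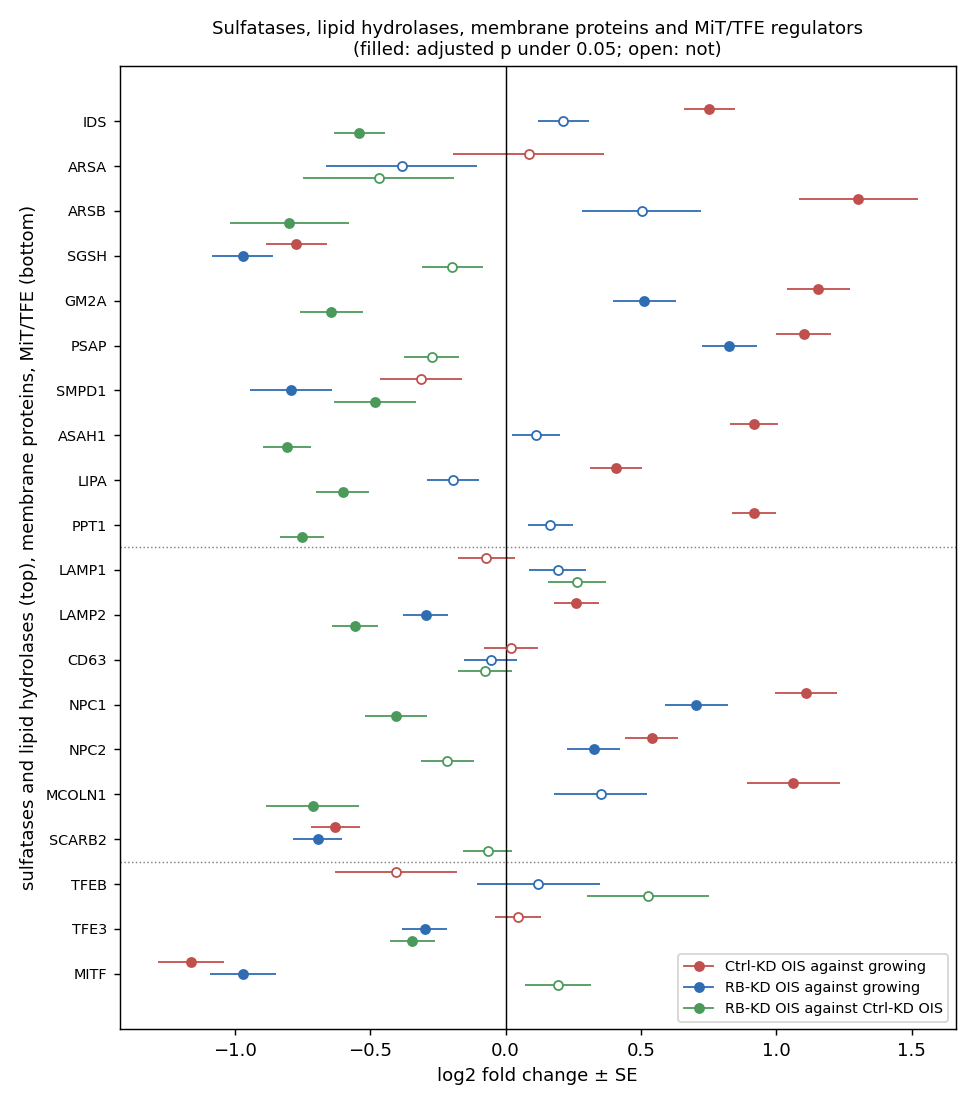
Log2 change ± SE of 20 genes (sulfatases and lipid hydrolases at the top, membrane proteins in the middle, MiT/TFE regulators at the bottom) in the 3 comparisons, with filled points where the adjusted p was under 0.05. ASAH1, PPT1, IDS and LIPA have red filled points above 0, green filled points below 0 and open blue points near 0.

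Read from their brightest probe sets, the V-ATPase genes that were called against growing cells were all higher. Of 15 tested, 12 were higher and 0 lower in Ctrl-KD OIS than growing cells, and 11 were higher and 0 lower in RB-KD OIS cells (limma; the unadjusted p was under 0.05 for 12 in each). Between the OIS states 1 was higher and 3 were lower. Among the V1 subunits, ATP6V1C1, the C subunit whose binding joins V1 to V0, read 1941 and 2078 in growing, 5262 and 5568 in Ctrl-KD OIS and 4847 and 4635 in RB-KD OIS cells. Both OIS states lay well above growing cells, by 1.43 (SE 0.09, adjusted p = 2.2e-06) and 1.24 (SE 0.09, adjusted p = 7.8e-06). The -0.19 of ATP6V1C1 between the OIS states was not called (adjusted p = 0.145), and another of its probe sets gave 0.43 there (adjusted p = 0.0219). ATP6V1B2, the B subunit of the catalytic ring in most tissues, read 2403 and 2323 in growing, 4997 and 5974 in Ctrl-KD OIS and 4176 and 4467 in RB-KD OIS cells, 2.31-fold and 1.83-fold above growing cells (adjusted p = 1.77e-05 and 0.00018).

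ATP6V1G1, a stalk subunit, read 8489 and 8319 in growing, 16666 and 18258 in Ctrl-KD OIS and 15068 and 14183 in RB-KD OIS cells. Its log2 change was 1.05 (SE 0.08, adjusted p = 9.69e-06) in Ctrl-KD OIS and 0.80 (SE 0.08, adjusted p = 7.02e-05) in RB-KD OIS cells. ATP6V1E1, which pairs with it in the stalk, read 5108 and 5224 in growing, 8753 and 10569 in Ctrl-KD OIS and 8836 and 9053 in RB-KD OIS cells. The OIS states overlapped each other and lay above growing cells, 1.86-fold and 1.73-fold (adjusted p = 8.51e-05 and 0.00024). ATP6V1D and ATP6V1H, the central shaft and a regulatory subunit, were higher by 0.68 and 0.80 in Ctrl-KD OIS and in RB-KD OIS cells by 0.60 and 0.59. ATP6V1A, the catalytic A subunit, was the exception, with 6770 and 6572 in growing, 6227 and 6602 in Ctrl-KD OIS and 6724 and 5734 in RB-KD OIS cells. All 3 states overlapped for ATP6V1A, and its log2 changes were -0.06, -0.10 and -0.05 (adjusted p = 0.675, 0.437 and 0.775). A dimmer further probe set of ATP6V1A gave -0.29 in Ctrl-KD OIS against growing cells (limma, adjusted p = 0.156). In RB-KD OIS against growing cells that probe set was called lower, at -0.45 (adjusted p = 0.044). The probe set shared by ATP6V1F and LOC101927180 read 3276 and 3614 in growing, 7414 and 7869 in Ctrl-KD OIS and 6572 and 6363 in RB-KD OIS cells, with 1.15 (adjusted p = 9.8e-06) and 0.91 (adjusted p = 6e-05) against growing cells.

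Of the 8 V0 and accessory genes, 6 were higher in Ctrl-KD OIS and 5 in RB-KD OIS than growing cells. ATP6V0B, a subunit of the rotating proteolipid ring, read 4624 and 4460 in growing, 7862 and 9022 in Ctrl-KD OIS and 9270 and 9475 in RB-KD OIS cells. Against growing cells its signal was 1.85-fold higher with Ctrl-KD (adjusted p = 4.7e-05) and 2.06-fold higher with RB-KD (adjusted p = 2.56e-05). ATP6V0D1, which couples the ring to the shaft, read 2843 and 3037 in growing, 4793 and 5497 in Ctrl-KD OIS and 4067 and 4191 in RB-KD OIS cells, 1.75-fold and 1.41-fold above growing cells (adjusted p = 0.000133 and 0.00312). ATP6V0C, the major proteolipid subunit, read 3453 and 3386 in growing, 4855 and 5254 in Ctrl-KD OIS and 4336 and 4454 in RB-KD OIS cells. Its rise of 0.56 in Ctrl-KD OIS cells passed (adjusted p = 0.000549), and its 0.36 in RB-KD OIS (adjusted p = 0.00768) was lost without either growing array (adjusted p = 0.0554 and 0.0722).

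ATP6V0E2, an isoform of the small e subunit, had a pattern of its own, with 460 and 462 in growing, 405 and 413 in Ctrl-KD OIS and 649 and 750.3 in RB-KD OIS cells. It was 1.71-fold higher in RB-KD OIS than Ctrl-KD OIS cells (log2 change 0.77, SE 0.14, adjusted p = 0.00427), while its 0.60 against growing cells (adjusted p = 0.00833) was lost without either growing array or RB-KD OIS replicate 2 (adjusted p = 0.0506 to 0.0595). ATP6V0E1, the other e subunit, had 0.46 in Ctrl-KD OIS against growing (limma, adjusted p = 0.035). This call was lost without growing replicate 1, growing replicate 2 or Ctrl-KD OIS replicate 2 (values 0.44, 0.48 and 0.26). Its further probe sets gave -0.28 to 0.68 there, and those at 0.49, 0.53 and 0.68 were called (adjusted p = 0.00241, 0.000441 and 0.0164). The ATP6V0E1 probe set at 0.53 gave -0.47 between the OIS states (adjusted p = 0.00282). ATP6V0A1, an a subunit that forms the proton path, had 0.54 in Ctrl-KD OIS (adjusted p = 0.0245), lost without growing replicate 2 (adjusted p = 0.173) or Ctrl-KD OIS replicate 2 (adjusted p = 0.13). ATP6AP2, the accessory prorenin receptor, was higher by 0.45 in Ctrl-KD OIS (adjusted p = 0.00301) and 0.37 in RB-KD OIS (adjusted p = 0.00949), the latter lost without growing replicate 1 (adjusted p = 0.106) or RB-KD OIS replicate 1 (adjusted p = 0.0631). ATP6AP1, an accessory subunit of assembly, was called in none of the comparisons. The 3 pump genes lower in RB-KD OIS than Ctrl-KD OIS cells, ATP6V1B2 (-0.34), ATP6V1G1 (-0.25) and ATP6V0D1 (-0.31), passed narrowly (adjusted p = 0.0409, 0.0485 and 0.0401), and each call was lost without any array but Ctrl-KD OIS replicate 1 (adjusted p = 0.0763 to 0.187).

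**Figure D5:**
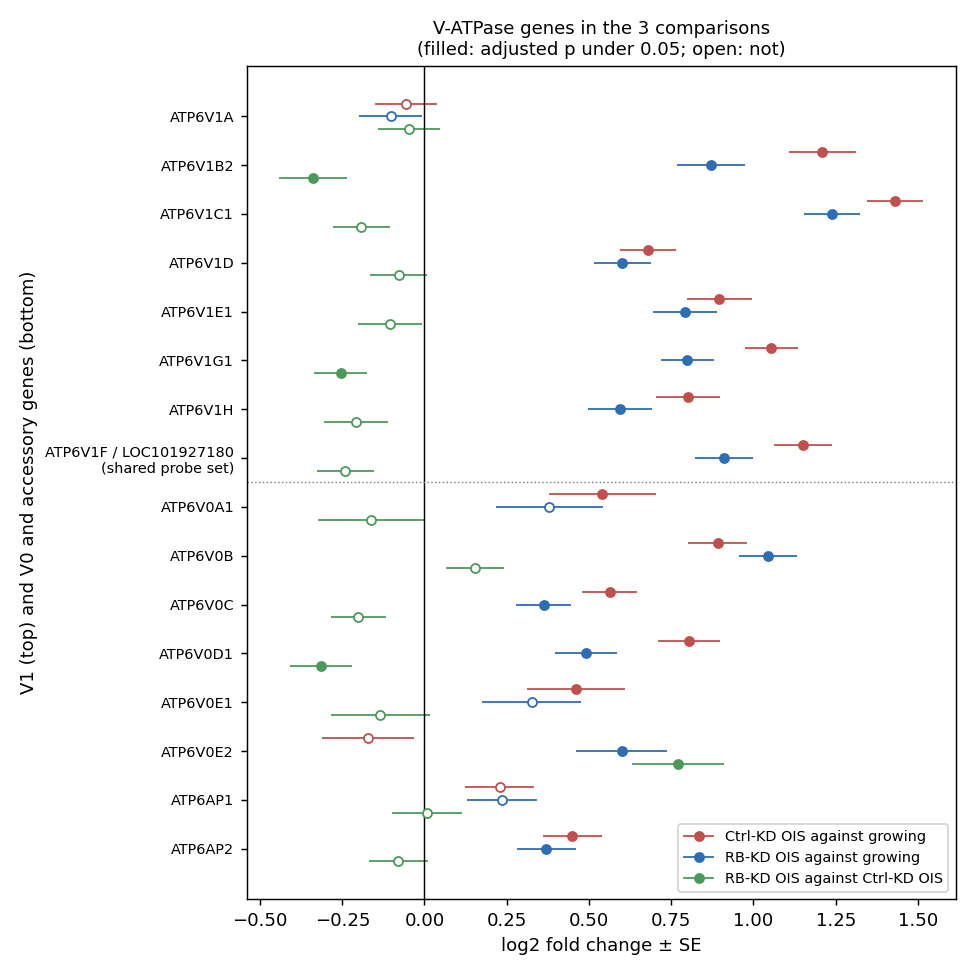
Log2 change ± SE of the V-ATPase genes in the 3 comparisons (V1 subunits above the dotted line, with the probe set shared by ATP6V1F, and V0 and accessory genes below it), with filled points where the adjusted p was under 0.05. Red and blue points lie above 0 except for ATP6V1A and the red point of ATP6V0E2. Green points lie from -0.34 to 0.15 except for ATP6V0E2 at 0.77, and those of ATP6V1B2, ATP6V1G1 and ATP6V0D1 are filled and below 0.

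Other genes of the pathway come from lists made beside these 56, and their counts are to be read against the shares of all tested genes given above. Of 26 genes tested in a list of further lysosomal hydrolases, 6 were higher and 7 lower in Ctrl-KD OIS and 3 higher and 13 lower in RB-KD OIS than growing cells, with 3 higher and 9 lower between the OIS states. In Ctrl-KD OIS these shares (23.1% and 26.9%) lay near those of all genes, and in RB-KD OIS 50% were lower. ARSG, a heparan sulfatase, was higher by 1.76 and 1.10 against growing cells (adjusted p = 0.000514 and 0.00855). NAGPA, which the list holds although its product uncovers the mannose 6-phosphate tag, had -1.23 in RB-KD OIS against growing (adjusted p = 0.00432). CTSH, cathepsin H, had 1.30 between the OIS states (adjusted p = 0.0168). Of 12 further V-ATPase isoforms and assembly factors tested, 2 were higher and 1 lower in Ctrl-KD OIS and 3 higher and 3 lower in RB-KD OIS than growing cells, with 4 higher and 1 lower between the OIS states. Against growing cells 16.7% and 25% were higher, near the shares of all genes. The assembly factor gene VMA22 had -1.11 (adjusted p = 6.72e-05) and DMXL2, of the rabconnectin complex that reassembles the pump, 0.99 (adjusted p = 8.82e-05) in RB-KD OIS against growing. NCOA7, whose product binds the pump, was higher by 1.03 in RB-KD OIS than Ctrl-KD OIS (adjusted p = 0.0002).

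Of 19 genes of mannose 6-phosphate tagging and sorting, 5 were higher and 2 lower in Ctrl-KD OIS and 5 higher and 4 lower in RB-KD OIS than growing cells, with 1 higher and 5 lower between the OIS states. Against growing cells 26.3% were higher in either OIS state, not far from the shares of all genes. M6PR, the smaller mannose 6-phosphate receptor, was higher by 1.11 in Ctrl-KD OIS (adjusted p = 0.000338) and 0.58 in RB-KD OIS (adjusted p = 0.014). SORL1, another sorting receptor, had -1.61 and -1.32 (adjusted p = 0.000672 and 0.00263), and GGA2, a clathrin adaptor, 0.85 in RB-KD OIS against growing (adjusted p = 0.00241). Of 17 genes of nutrient sensing at the lysosome, 8 were higher and 3 lower in Ctrl-KD OIS and 3 higher and 5 lower in RB-KD OIS than growing cells, with 1 higher and 5 lower between the OIS states. RRAGD, a Rag GTPase, was higher by 2.60 and 3.03 (adjusted p = 0.00207 and 0.00103), but growing cells read only 66.2 and 20.7 for it, where their array medians were 51.8 and 49.5. LAMTOR3, of the Ragulator complex, was higher by 0.99 in Ctrl-KD OIS against growing cells (adjusted p = 3.27e-05), and FNIP1, a partner of folliculin, had -0.90 between the OIS states (adjusted p = 0.000305).

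Of 29 further membrane proteins and transporters, 10 were higher and 5 lower in Ctrl-KD OIS and 9 higher and 5 lower in RB-KD OIS than growing cells, with 2 higher and 7 lower between the OIS states. LAPTM5 lay below the median of each growing array and was higher in both OIS states, at least 5.98-fold for Ctrl-KD and at least 5.18-fold for RB-KD (adjusted p = 5.01e-05 and 0.000101). GPNMB, a glycoprotein of melanosomes and lysosomes, was higher by 1.89 and 1.04 (adjusted p = 8.7e-05 and 0.00363), and SLC11A2, an iron transporter, by 1.75 and 1.71 (adjusted p = 7.94e-07 and 1.22e-06). Of 7 cysteine protease inhibitors tested, which block cathepsins, 6 were higher in both OIS states and 1 was lower in Ctrl-KD OIS cells, while 0 were called between the OIS states (limma; 1 at an unadjusted p under 0.05). CST4 was higher by 3.41 and 3.51 (adjusted p = 6.44e-05 and 7.32e-05). CST1 and CSTA lay below the median of each growing array and were higher in both OIS states, at least 5.22-fold and 3.95-fold for Ctrl-KD and at least 9.62-fold and 1.45-fold for RB-KD (adjusted p = 0.0019, 0.000455, 0.000801 and 0.00706). CST1 and CST4 are near-identical copies in the same gene cluster, so their probe sets may share signal.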

How the data were processed

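Per the labels, expression was measured with Affymetrix U133 Plus 2.0 arrays, and the authors used MAS5 in Affymetrix Expression Console (versions not given in the sources used here). The deposited intensity values are linear MAS5 signals of 54613 probe sets, brought by the authors to a common level (trimmed mean 496.2 to 496.5), with no detection calls. They were taken to log2 with no offset. Each gene was read from the brightest of its probe sets, of which 41091 name a single gene by the platform annotation, and a probe set that names several genes was tested apart. The filter kept genes whose signal exceeded the median of the array on 2 or more of 6 arrays. They were tested with limma 3.58.1 in R 4.3.3, fitting the 3 states on all arrays at once with a prior variance tied to the signal, and Benjamini-Hochberg adjustment over the 13398 genes at 0.05. Precision is limited by the number of arrays. With 2 against 2, the smallest two-sided p of an exact permutation test is 0.333, so the p-values here rest on the spread shared across genes. Signals of different genes were not compared in level.

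The genes and lists were chosen with earlier results of these data known. Signals on every array are given for GLB1, TFEB, TFE3 and MITF and for up to 4 called genes per group with the largest absolute change, and ATP6V1A and the probe set of ATP6V1F were added after their values were seen. Up to 3 called genes of each other list are named. Gene symbols of the lists were matched to RefSeq names, and 4 were updated. Replicate differences hardly correlated between states (r -0.00384 to 0.035), so samples were not treated as paired. Differences of single arrays are noisy, so this cannot exclude that samples with the same number share an experiment. The calls were tested on simulated data. The alternatives changed the normalization (quantile, median centring), the offset (12.5), the filter (none, percentile 70), the summary of probe sets (their mean, or each one in turn), the variance model (no trend), and the arrays used (compared states alone, each array left out), or added a replicate block.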

Additional observations from a re-analysis of the deposited data

How the results depend on the processing

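The calls of the 54 genes depended on single arrays. Without each array in turn, 32 of 39 calls in Ctrl-KD OIS against growing, 25 of 34 in RB-KD OIS against growing and 14 of 24 between the OIS states held every time, and 25, 19 and 6 held under each of 15 alternatives, which leave out the single further probe sets. With 1 array left out, the median log2 change lay between 0.46 and 0.53, between 0.30 and 0.41 and between -0.28 and -0.15 in the 3 comparisons, and 10 to 15 genes were lower between the OIS states. Quantile normalization gave medians of 0.45 and 0.29 against growing, the offset 0.48 for Ctrl-KD OIS, and median centring 0.60 and 0.47. Median centring raised the median of all genes to 0.08 and 0.10 (0.51 and 0.38 below those of the 54) and gave 3097 genes higher and 1984 lower in RB-KD OIS against growing, in place of 2481 and 2552. The mean of all probe sets gave medians of 0.35 and 0.24 against growing, with 4 and 3 of the 54 lower, and between the OIS states 3 higher and 6 lower. It called 1730 of all genes higher and 1854 lower, 1453 and 1586, and 874 and 775 in the 3 comparisons. Without a trend in the prior variance 8 of the 54 were lower, and 940 of all genes higher and 641 lower, between the OIS states, and without RB-KD OIS replicate 1 these were 1067 and 852. With the replicate number as a block, 32 of the 54 were higher and 7 lower, 28 and 7, and 6 and 18, with the same medians, and ATP6V1G1 lost its call between the OIS states. The samples share only a number, so whether the block is a pairing is not known. In 100 instances a gene's value changed sign under an alternative, 35 of them for a called value, and the cause was not tested. In 6 of them, of LAMP2 and CTSC, the value of the alternative was called as well. A further probe set gave HEXA -0.0074, ARSA -0.34, SMPD1 0.81, LAMP2 -1.53, NPC1 -0.38 or -0.26, TFE3 -0.19, ATP6V1H -0.36 and ATP6V0E1 -0.28 for Ctrl-KD OIS against growing. Such probe sets gave CTSB -0.28 or -0.16 or -0.0837, TPP1 -0.39, HEXA -0.64, IDS -0.0639, GM2A -0.42, SMPD1 0.14, ASAH1 -0.11, LAMP1 -0.0319 or -0.18, LAMP2 0.30 or 0.18, NPC1 -0.0776 or -0.53, TFE3 0.0536, ATP6V1H -0.14 and ATP6V0E1 -0.27 for RB-KD OIS against growing. They gave CTSC 1.08, TPP1 -0.54 or -0.18 or -0.014, HEXA -0.63 or -0.85, GM2A 0.23, SMPD1 0.78, LAMP2 0.30 or 0.18 or 0.58, NPC1 0.30, ATP6V1C1 0.47 or 0.43, ATP6V1H 0.22 and ATP6V0E1 0.0043 between the OIS states. The mean of all probe sets gave NAGLU 0.73, ARSA -0.13, LAMP2 -0.32 and ATP6V1H -0.15 for Ctrl-KD OIS against growing. It gave GUSB -0.22, FUCA1 -0.28, NAGLU 0.37, ARSB -0.0059, LIPA 0.53, NPC1 -0.31, TFEB -0.36, ATP6V1H -0.55 and ATP6V0A1 -0.79 for RB-KD OIS against growing, and CTSC 0.0046, TPP1 -0.18, HEXA -0.16, NAGLU -0.35, LIPA 0.39, LAMP2 0.13, ATP6V1C1 0.10 and ATP6AP2 0.10 between the OIS states. Median centring gave FUCA1 0.0466, LAMP1 0.0215 and ATP6V1A 0.036 for Ctrl-KD OIS against growing and CD63 0.055 and ATP6V1A 0.0074 for RB-KD OIS against growing. Quantile normalization gave FUCA1 0.11, CD63 -0.0782 and TFE3 -0.0226 for Ctrl-KD OIS against growing. With 1 array left out the ranges were GAA -0.49 to 0.0343, FUCA1 -0.22 to 0.13, ARSA -0.18 to 0.35, LAMP1 -0.21 to 0.0683 and CD63 -0.12 to 0.16 for Ctrl-KD OIS against growing. They were CTSD -0.30 to 0.0526, LGMN -0.21 to 0.31, TFEB -0.0287 to 0.27 and ATP6V1A -0.22 to 0.0116 for RB-KD OIS against growing. They were CTSB -0.20 to 0.0275, TPP1 -0.0391 to 0.0395, GAA -0.51 to 0.0125, NAGLU -0.006 to 0.61, CD63 -0.22 to 0.0665, SCARB2 -0.15 to 0.0167, ATP6V1A -0.16 to 0.0685, ATP6V1D -0.17 to 0.0093, ATP6V1E1 -0.24 to 0.0311, ATP6V0E1 -0.34 to 0.0667, ATP6AP1 -0.13 to 0.15 and ATP6AP2 -0.17 to 0.0102 between the OIS states. Low signal over background limits genes such as GAA and TFEB, which read at most 277 and 220 where array medians reached 51.8.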
